A study of Homo sapiens with 20 samples.

Results

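The ZNF genes of chromosome 19 were examined in ChIP-seq peak lists from HCT116 cells, a human colorectal carcinoma line. The members were the RefSeq protein-coding genes on chromosome 19 whose symbol begins with ZNF and a digit. There were 250 of them among 19970 coding genes on chromosomes 1 to 22 and X, and 4 of the 250 are readthrough genes that join 2 neighbours. The groups were wild-type cells (WT) and cells in which MLL4 was knocked out (KO). MLL4 is the product of KMT2D, a methyltransferase that places H3K4me1 at enhancers. The labels give neither the knockout method nor the number of clones, and each genotype was taken as 1 line. No treatment is named, and both genotypes were grown in the same medium. Each genotype had 2 libraries for H3K4me3, for H3K27ac and for p53, and a single library for H3K4me1, MLL1 and MLL4. The labels do not say whether replicates were separate cultures, so spread between them may be technical.

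Most ZNF genes of this chromosome encode KRAB zinc finger proteins, a family of DNA-binding repressors. Their tandem C2H2 fingers read DNA, often within transposable elements. Their KRAB domain binds TRIM28, which brings in SETDB1 and HP1 proteins and with them H3K9 methylation. The genes arose by tandem duplication and sit in dense clusters of close relatives. H3K4me3 marks active or poised promoters, H3K27ac active promoters and enhancers, and MLL1 is the H3K4 methyltransferase encoded by KMT2A.

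A promoter was taken as the 1 kb on each side of any RefSeq-listed start site. For the 31 members with no listed start, both gene ends were used. A mark was called at a promoter where a peak of the authors' list overlapped this window, and its level is the authors' fold enrichment of that peak over local background, the highest where several met. Kept means called in every library of a target, lost means called in all WT libraries but none from KO, and gained is the reverse. The measured call is the presence of a listed peak, so a level below the calling limit cannot be seen. A weaker peak from fewer cells carrying a mark and from less of the mark in each cell cannot be told apart.

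Runs of at least 5 members with neighbours at most 1 Mb apart formed 9 clusters, numbered along the chromosome, which held 239 members. The other 11 are called dispersed. Cluster 3 (hg38 chr19:11483429-12633834) ran from ZNF653 to ZNF791 with 25 members. Cluster 4 (chr19:19668153-24129968) held 37 members from ZNF101 to ZNF254. Cluster 6 (chr19:36182060-37779586) held 26 from ZNF565 to ZNF573, and cluster 7 (chr19:43530835-45076478) held 24 from ZNF575 to ZNF296. Cluster 8 (chr19:51571283-53580269) held 41 from ZNF175 to ZNF331, and cluster 9 (chr19:55476617-58489533) held 60 from ZNF628 to ZNF446.

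The promoters of 6 members show the range of cases met below, as the 250 bases before the start in RefSeq (GRCh38.p14), 5′ to 3′ on the gene's strand, with CpG dinucleotides in capitals. ZNF700 (chr19:11924857-11925106, plus strand) lost H3K4me3 in KO. Its neighbour ZNF69 (chr19:11887532-11887781, plus strand) had no H3K4me3 but had p53 in both WT libraries. ZNF83 (chr19:52690497-52690746, minus strand) had H3K4me3 in only 1 WT library, and its relative ZNF765 (chr19:53394899-53395148, plus strand) in all 4 libraries. ZNF582 (chr19:56393535-56393784, minus strand) had no H3K4me3 and lost p53 in KO, and ZNF580 (chr19:55640752-55641001, plus strand) carried every target in WT.
ZNF700: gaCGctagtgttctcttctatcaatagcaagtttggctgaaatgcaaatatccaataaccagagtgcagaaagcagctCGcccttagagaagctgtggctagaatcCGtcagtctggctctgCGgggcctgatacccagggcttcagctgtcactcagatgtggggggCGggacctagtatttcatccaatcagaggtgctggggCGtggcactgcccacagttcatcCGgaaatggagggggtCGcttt
ZNF69: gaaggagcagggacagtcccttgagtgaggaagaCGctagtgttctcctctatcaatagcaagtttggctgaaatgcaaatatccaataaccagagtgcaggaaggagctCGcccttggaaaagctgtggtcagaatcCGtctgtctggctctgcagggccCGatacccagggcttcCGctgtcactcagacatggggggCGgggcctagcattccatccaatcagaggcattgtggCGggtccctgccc
ZNF83: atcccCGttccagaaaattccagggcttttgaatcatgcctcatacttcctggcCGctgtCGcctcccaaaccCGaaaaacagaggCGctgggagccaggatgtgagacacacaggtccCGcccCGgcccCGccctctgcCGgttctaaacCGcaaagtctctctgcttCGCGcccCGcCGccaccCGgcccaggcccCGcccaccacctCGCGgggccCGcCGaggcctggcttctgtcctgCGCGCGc
ZNF765: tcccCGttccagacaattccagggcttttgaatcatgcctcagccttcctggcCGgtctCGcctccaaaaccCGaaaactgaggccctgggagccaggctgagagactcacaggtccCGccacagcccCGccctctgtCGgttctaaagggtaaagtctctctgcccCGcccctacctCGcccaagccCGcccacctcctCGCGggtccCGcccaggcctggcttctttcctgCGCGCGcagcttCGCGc
ZNF582: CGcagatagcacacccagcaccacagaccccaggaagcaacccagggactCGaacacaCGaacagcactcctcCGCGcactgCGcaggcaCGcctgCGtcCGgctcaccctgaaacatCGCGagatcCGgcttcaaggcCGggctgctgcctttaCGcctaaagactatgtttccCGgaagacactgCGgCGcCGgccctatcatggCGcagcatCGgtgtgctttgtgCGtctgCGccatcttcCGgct
ZNF580: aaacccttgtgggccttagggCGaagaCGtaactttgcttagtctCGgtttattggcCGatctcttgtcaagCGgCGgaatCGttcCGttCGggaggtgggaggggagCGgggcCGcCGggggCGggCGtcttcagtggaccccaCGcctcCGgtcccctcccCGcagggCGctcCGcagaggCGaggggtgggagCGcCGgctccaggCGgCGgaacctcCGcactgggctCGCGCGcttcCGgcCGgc
The first pair is alike over most of its length. Aligned without penalty for overhanging ends, the ZNF700 and ZNF69 stretches had 195 identical bases in 218 columns (89.4%) and shared a run of 53 bases. ZNF83 and ZNF765 had 214 identical bases in 249 columns (85.9%). These stretches held 8 CpG in ZNF700, 7 in ZNF69, 23 in ZNF83, 18 in ZNF765, 23 in ZNF582 and 30 in ZNF580.

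Several libraries stood apart at these genes, and this bears on every count below. H3K4me3 was called at 120 members in WT replicate 1 and at 145 in WT replicate 2. It was called at 113 members in each KO replicate. Over all coding genes the same 4 lists reached 62.0%, 62.1%, 61.7% and 61.7% of promoters. Beyond the ZNF genes, 245 promoters were called in WT replicate 1 only of this pair and 230 in WT replicate 2 only, whereas the ZNF genes differed in 1 direction, with 0 and 25. H3K27ac was called at 124 and 158 members in the WT replicates and at 108 and 105 in KO. The H3K27ac list of WT replicate 2 is the longest, with 198757 peaks against 139104 in WT replicate 1, whereas the H3K4me3 list of WT replicate 2 (19668 peaks) is shorter than that of replicate 1 (20922 peaks). For p53, KO replicate 1 reached 62 members and each other list 116 or 117, and the KO lists held 24972 and 62248 peaks. Over all coding genes the p53 lists reached 54.3% and 54.1% of promoters in WT and 57.3% and 70.2% in KO. Lists of 1 genotype were called against the same input, so a difference between genotypes and a difference between the inputs cannot be told apart. Colorectal epithelial identity was read from H3K4me3: 6 of 8 epithelial marker promoters (such as EPCAM and CDH1) had it in all 4 libraries, KRT8 only in WT and CDX1 in none, and of 10 markers of other cell types COL1A1 and SYP had it.

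**Figure D1:**
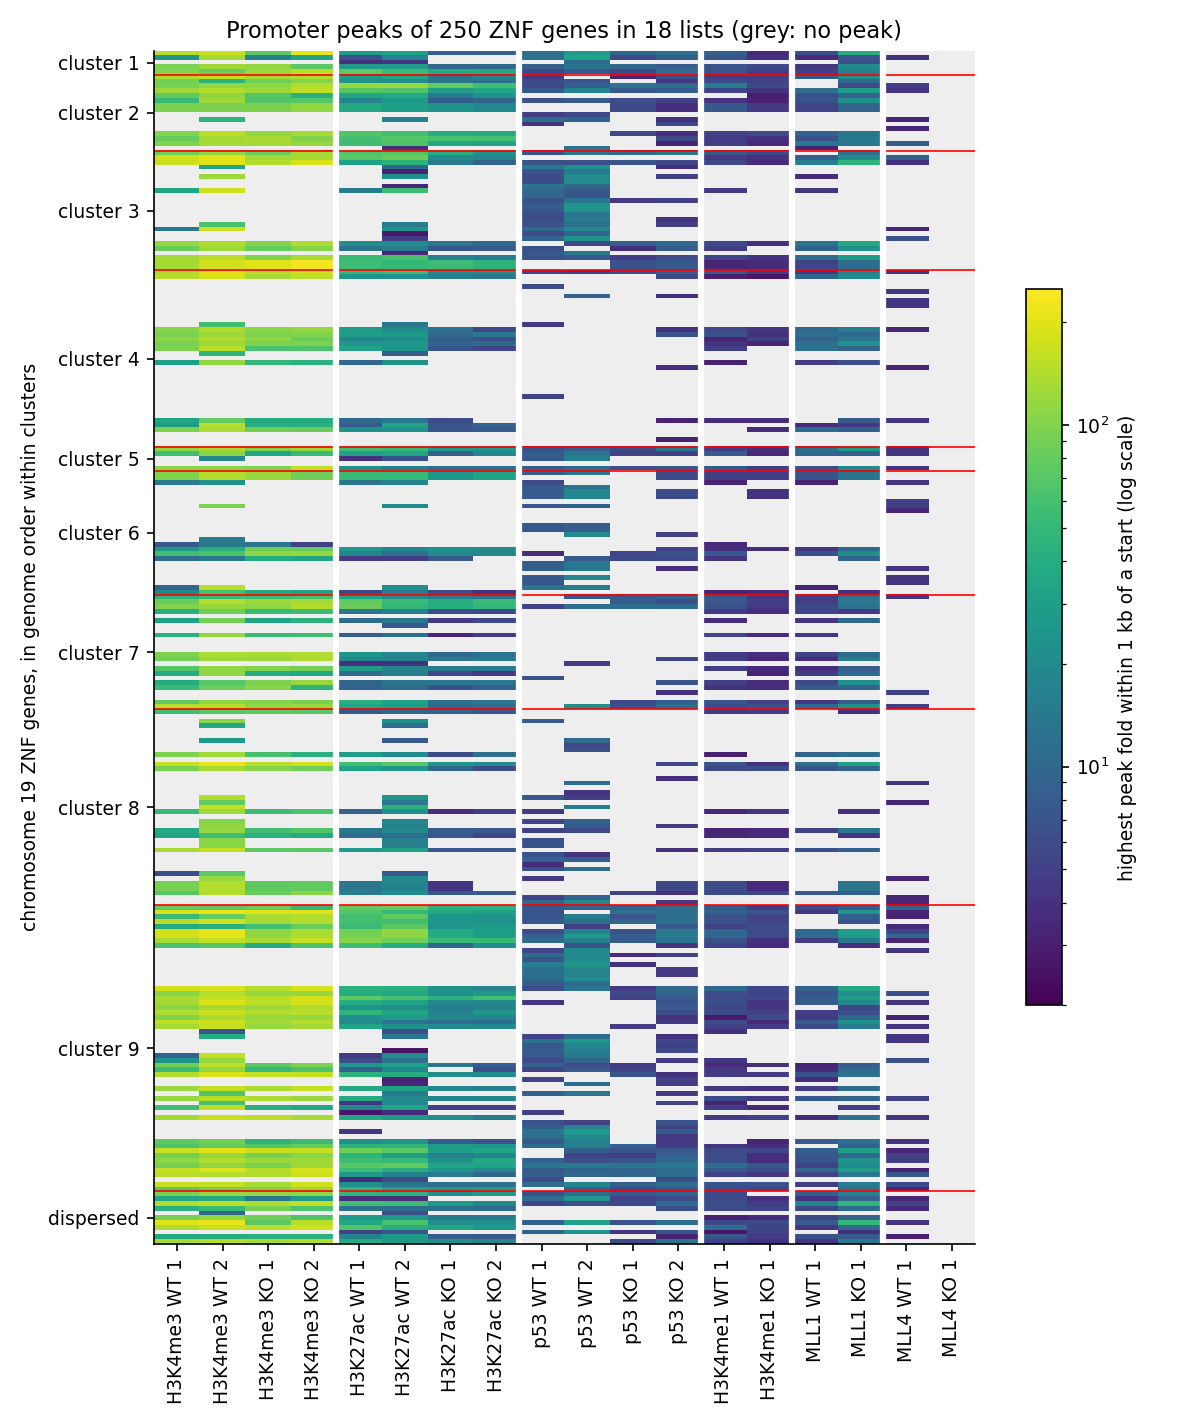
Each row is 1 of the 250 ZNF genes, in genome order within 9 clusters and the dispersed genes, and each column 1 of the 18 peak lists. Colour gives the fold of the highest promoter peak on a log scale, and grey means no peak. The columns of H3K4me3 and H3K27ac WT replicate 2 hold rows that the other columns of those marks lack, p53 fills blocks of rows without H3K4me3 in clusters 3 and 9, and the MLL4 KO column is empty.

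H3K4me3 was kept at 113 of the 250 members, lost at 7 and gained at 0. The 7 lost promoters were 2.8% of members, beside 0.31% of all coding genes lost and 0.165% gained. The remaining members had no H3K4me3 in any library (105, or 42%, beside 36.2%) or were called in WT replicate 2 only (25). Kept promoters were 45.2% of members, beside 60.3% of all coding genes, 75.7% of the 267 ZNF genes on other chromosomes and 60.9% of the other 1201 coding genes of chromosome 19. The member sets were nested without exception: both KO libraries had the same 113 members, WT replicate 1 had those and the 7, and WT replicate 2 had those and the 25. With 2 libraries against 2 an exact two-sided permutation test cannot go below p = 0.333, so counts are given as descriptions.

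The 7 lost promoters had lower H3K4me3 in WT replicate 1 than in WT replicate 2, by a wide margin at all but ZNF566. ZNF700 had H3K4me3 folds of 34.7 in WT replicate 1 and 177 in WT replicate 2 and no peak in KO. ZNF530 had 24.0 and 117, and ZNF44 had 14.2 and 171. ZNF607 had 9.94 and 148, and ZNF416 had 9.14 and 159. These are C2H2 zinc finger genes of clusters 3, 6 and 9. The smallest gap between WT replicates was at ZNF566, with 14.9 and 24.1. ZNF845 had 6.40 and 72.7. In each of the 7 the higher fold was that of WT replicate 2. For comparison, kept members had median folds of 95.9 and 132 in the WT replicates and 101 and 115 in KO.

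The lost promoters had little else left in KO. H3K27ac was called at 4 of the 7 in WT replicate 1, at all 7 in WT replicate 2 and at 0 in either KO library. MLL1, H3K4me1 and MLL4 were each called at 3 of the 7 in WT and at 0 in KO. p53 was called at 6 and 5 of the 7 in WT and at 0 and 1 in KO. The 55 other coding genes that lost H3K4me3 had H3K27ac in WT at 51 and 53 (92.7% and 96.4%, against 57.1% and 100% of the 7) and H3K4me1 at 52 (94.5%, against 42.9%). Of these 55, MLL1 was called in WT at 22 (40.0%, close to the 42.9% of the 7) and MLL4 at 11. In KO the 55 had H3K27ac at 18 and 19, H3K4me1 at 17, MLL1 at 10 (18.2%) and MLL4 at 0. They had p53 at 20 and 37 in KO, against 32 in each WT library. At ZNF700 the H3K27ac folds were 14.6 and 56.1 in WT, the H3K4me1 fold 4.45, the MLL1 fold 4.30 and the p53 folds 9.82 and 7.75, and no target was called at this promoter in KO.

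The 25 promoters called only in WT replicate 2 had folds from low to high, with a median below that of kept members. This class was chosen after its values were seen. It held 10% of members, beside 1.16% of all coding genes, 2.62% of ZNF genes elsewhere and 0.5% of other chromosome 19 genes. Folds ran from 7.46 at ZNF772 to 163 at ZNF83, with a median of 62.5, and widths from 521 to 2026 bp. Kept members had a median of 132 and a lower quartile of 109 in WT replicate 2. ZNF808 had a fold of 144, ZNF440 of 123, ZNF525 of 120 and ZNF468 of 112. H3K27ac was called in WT replicate 2 only at 22 of the 25 (88%), beside 25.6% of the 207 other coding genes of this class. Its fold at ZNF83 was 42.8. In WT replicate 1 H3K27ac was called at 2 of the 25 (8%), beside 67.1%. In WT, H3K4me1 was called at 2 of the 25 (8%), beside 58.0% of the 207 other coding genes of this class. MLL1 was called in WT at 1 (4%) and MLL4 at 5 (20%), beside 9.66% and 29.0%. p53 was called at 15 and 13 of the 25 in WT (60% and 52%, beside 70.5% and 72.9%) and at 0 and 8 in KO (0% and 32%, beside 45.4% and 72.9%). Of the 25, 11 lay in cluster 8, 4 in cluster 9 and 3 in cluster 3.

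The count of lost promoters depended on which WT library was left out. Without WT replicate 1 there were 32 lost members (12.8%), beside 1.47% of all coding genes, and without WT replicate 2 there were 7 (2.8%), beside 0.551%. The part of the difference between WT replicates in the loss of H3K4me3 was not tested.

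**Figure D2:**
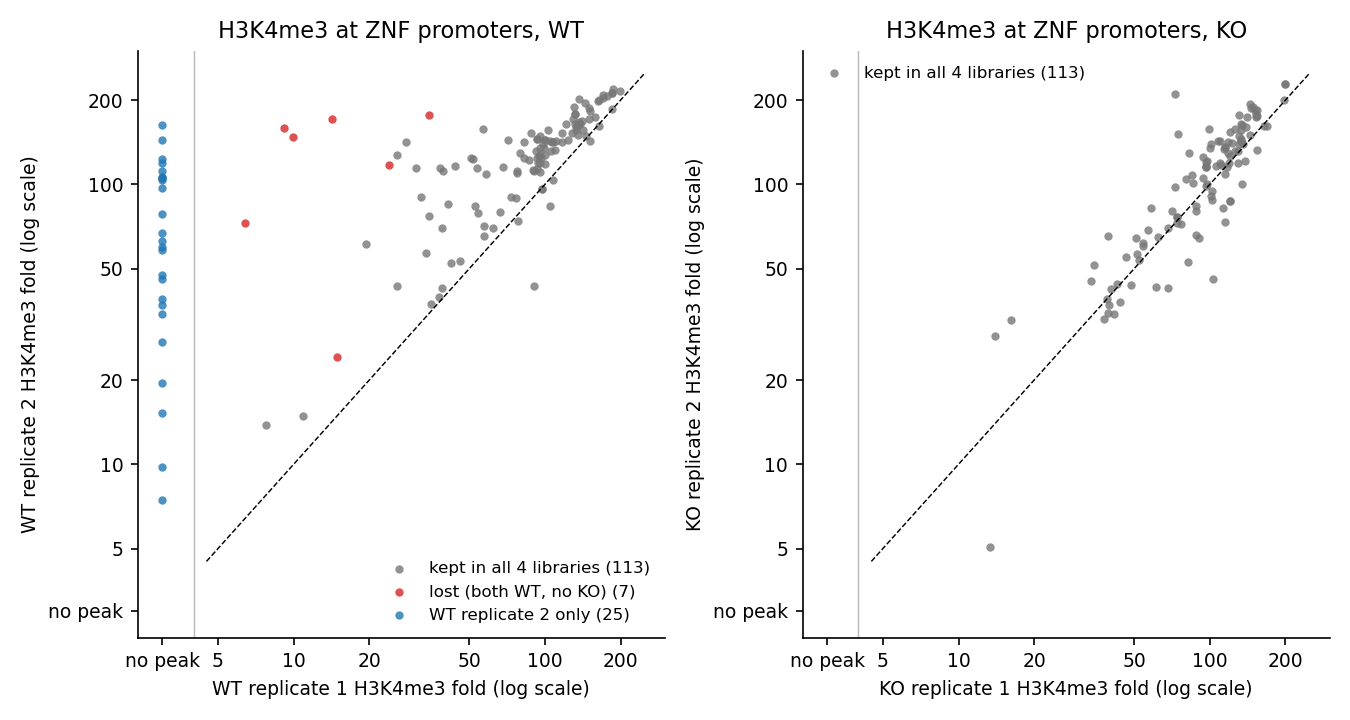
H3K4me3 fold at ZNF promoters in replicate 1 (x axis) and replicate 2 (y axis), on log scales, for WT (left) and KO (right); points in the strip marked no peak were not called in replicate 1, and the dashed line marks equal folds. In WT, 25 blue points lie in the no peak strip with folds of 7.46 to 163 in replicate 2, and the 7 red points all lie above the line; in KO the same 113 promoters appear in both replicates.

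At kept promoters the genotypes were close. The median log2 ratio of KO to WT H3K4me3 fold was −0.09 over the 113 members, beside −0.06 over the 12036 kept promoters of all coding genes. By pairs of libraries it ran from −0.32 (KO replicate 1 over WT replicate 2) to 0.20 (KO replicate 2 over WT replicate 1). Both KO folds were below both WT folds at 20 of 113 members (17.7%, beside 21.5% of all kept promoters) and above both at 14 (12.4%, beside 10.7%). The kept peaks were narrower than the whole set, with median widths of 1762 and 1888 bp in WT, beside 2380 and 2321 bp over all kept promoters.

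The WT replicates differed at kept promoters too. The fold of WT replicate 2 was at least 2 times that of replicate 1 at 15 of the 113 (13.3%), beside 2.28% of all kept promoters. ZNF91, a repressor of SVA retrotransposons, had folds of 28.0 and 142 in WT and of 40.3 and 42.4 in KO. ZNF100 had 30.7 and 115 in WT and 48.5 and 43.6 in KO. At both, the KO libraries lay between the 2 WT libraries.

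A few kept members differed by more than 2-fold with no overlap between genotypes. They were chosen for the size of their change, so they carry no test. ZNF587 had H3K4me3 folds of 56.5 and 158 in WT and 41.6 and 34.5 in KO (log2 ratio −1.32). ZNF616 had 95.9 and 127 in WT and 60.9 and 43.1 in KO (−1.11). In the other direction, ZNF527 had 10.9 and 14.9 in WT and 39.5 and 34.8 in KO (log2 ratio 1.54). ZNF383, also in cluster 6, had 25.8 and 43.2 in WT and 88.3 and 80.6 in KO (1.34). ZNF524 in cluster 9 and ZNF235 in cluster 7 had log2 ratios of 1.07 and 1.02, and all their KO folds were above their WT folds.

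The members with the strongest H3K4me3 peaks in WT were ranked by their lower WT fold. Their place above the WT medians of all kept promoters (119 and 142) thus follows from the choice. The highest KO folds of the set, 199 and 228, were at ZNF490 and ZNF791, which had 131 and 179 in WT. ZNF574 had H3K4me3 folds of 199 and 215 in WT and 74.5 and 152 in KO. ZNF579 had 186 and 219 in WT and 198 and 199 in KO. ZNF580 and ZNF581 share 1 promoter peak, with 184 and 212 in WT and 114 and 136 in KO. ZNF414 and ZNF576 were among the 4 widest. Members that share a peak are not independent, and the 113 kept members covered 108 distinct regions.

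At kept promoters H3K27ac was lower in KO, by about as much as across the genome. It was kept at 104 members (41.6%, beside 63.4% of all coding genes), lost at 14 and gained at 0. The lost share was 5.6%, beside 9.02% of all coding genes lost and 0.0551% gained. At kept members the median log2 ratio of KO to WT H3K27ac fold was −0.98, beside −0.95 over 12670 kept promoters of all coding genes, and the 4 library pairs gave −1.02 to −0.94. Both KO folds were below both WT folds at 92 of 104 (88.5%, beside 88.2%) and above both at 2 (1.92%, beside 0.789%). The WT libraries had median H3K27ac folds of 34.4 and 31.7, and the KO libraries of 16.6 and 17.7. Both KO medians thus lay below both WT medians.

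Among members that kept H3K4me3, H3K27ac was lost at 3, or 2.65%, beside 0.715% of all coding promoters with H3K4me3 kept. ZNF100 had H3K27ac folds of 9.88 and 23.3 in WT, ZNF555 of 6.49 and 17.3, and ZNF536, a KRAB-less gene of neuronal differentiation, of 3.88 and 3.89. H3K27ac was called at no library in 91 members, or 36.4%, beside 16.9% of all coding genes. A further 35 members had it in WT replicate 2 only, or 14%, beside 4.3%. Without WT replicate 1 the lost count was 49 (19.6%, beside 13.3% of all coding genes), so the lost share of members was then above that of the genome. With −log10 q of at least 5 it was 8 of 250 members, a share below the 8.06% of all coding genes. With lists of equal length it was 6 of 250, slightly below the 2.71% of all coding genes.

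**Figure D3:**
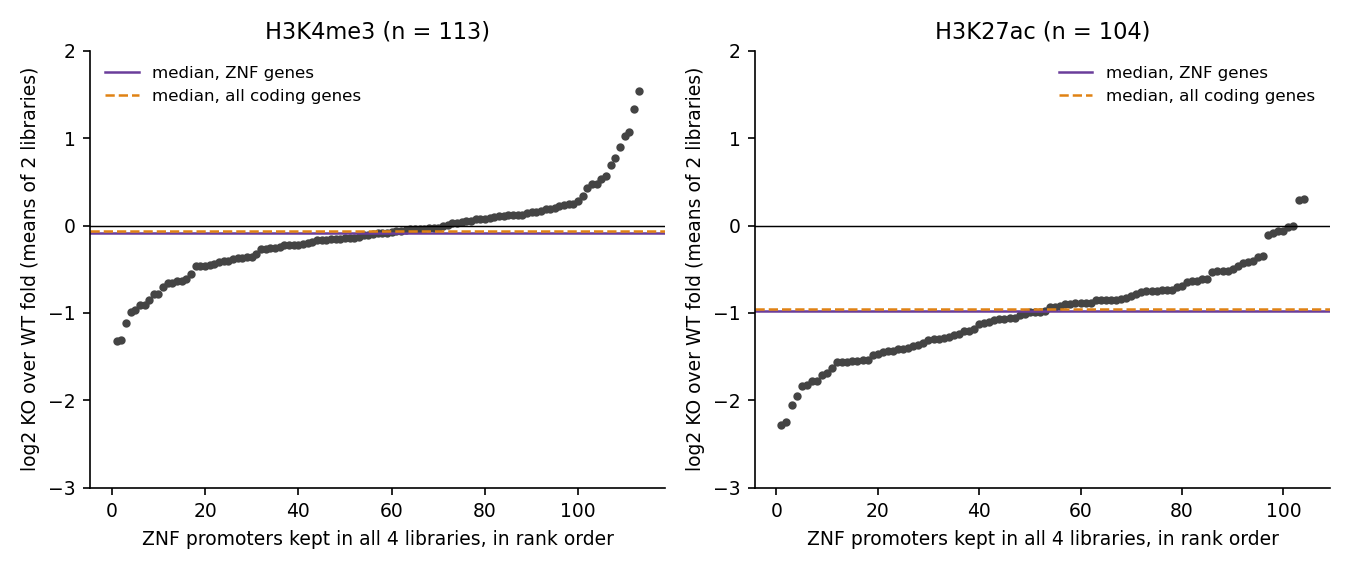
Each point is 1 ZNF promoter kept in all 4 libraries, for H3K4me3 (113 promoters) and H3K27ac (104 promoters). The y axis, which sets the rank, is the mean log2 fold in KO minus the mean log2 fold in WT. The lines mark the medians of the ZNF genes (−0.09 and −0.98) and of all coding genes (−0.06 and −0.95), which nearly coincide.

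The p53 lists differed between genotypes at many members. A p53 peak lay at the promoter of 116 and 117 members in the WT libraries, and in KO of 62 in replicate 1 and 117 in replicate 2. It was lost at 33 members (13.2%), beside 1.33% of all coding genes, 1.12% of ZNF genes elsewhere and 1.33% of other chromosome 19 genes. The 33 lay in 33 distinct regions. p53 was gained at 12 (4.8%), beside 7.76%, kept at 35 (14%), beside 42.4%, and absent from all 4 lists at 74 (29.6%), beside 26.3%. The deposited p53 lists of KO were unlike each other in length. The lost count was 36 without KO replicate 1 (14.4%, beside 1.57% of all coding genes) and 57 without KO replicate 2 (22.8%, beside 7.12%). The gained count was 37 without KO replicate 1 (14.8%, beside 14.2%) and 19 without WT replicate 2 (7.6%, beside 10.6%), so a gained share below that of the genome rested on KO replicate 1.

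Loss of p53 lay mainly at members without H3K4me3 (24 of the 33 lost), as it did over all coding genes (219 of 266). Of the 105 such members, p53 was called at 51 and 52 in the WT libraries, at 4 in KO replicate 1 and at 27 in KO replicate 2. Both WT libraries had it at 42 of them (40%), beside 29.9% of all coding promoters without H3K4me3. It was lost at 24 of the 105 (22.9%), beside 3.03%, and kept at 3 (2.86%), beside 15.5%. At the 7125 other coding genes without H3K4me3, p53 was called at 32.7% and 31.8% in WT and at 18.2% and 36.0% in KO. The selection of this subgroup by H3K4me3 was made after its values were seen.

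At members that kept H3K4me3 the order was the reverse. There p53 was called at 44 and 47 of 113 in WT and at 58 and 81 in KO. At the 11923 other coding genes with H3K4me3 kept, KO was also higher: 82.2% and 91.5%, against 67.5% and 67.7% for WT. Members had a lower share in each library (WT 38.9% and 41.6%, KO 51.3% and 71.7%). Among these members p53 was lost at 1 (ZNF320, 0.885%) and gained at 12 (10.6%), beside 0.208% and 12.3% of all coding promoters with H3K4me3 kept. All 12 gained members had H3K4me3 kept, as did 95.5% of all coding promoters that gained p53. ZNF490 and ZNF791, which share a promoter peak, had p53 folds of 6.64 and 7.62 in KO and no peak in WT. ZNF473, a zinc finger protein of histone pre-mRNA processing, had 6.13 and 12.7, and ZNF576 had 8.24 and 6.35. The remaining lost p53 peaks were at 4 of the 7 members that lost H3K4me3 (57.1%), beside 1.82% of the 55 other coding genes of that class. A further 4 were among the 25 called for H3K4me3 in WT replicate 2 only (16%), beside 4.35% of 207 others.

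**Figure D4:**
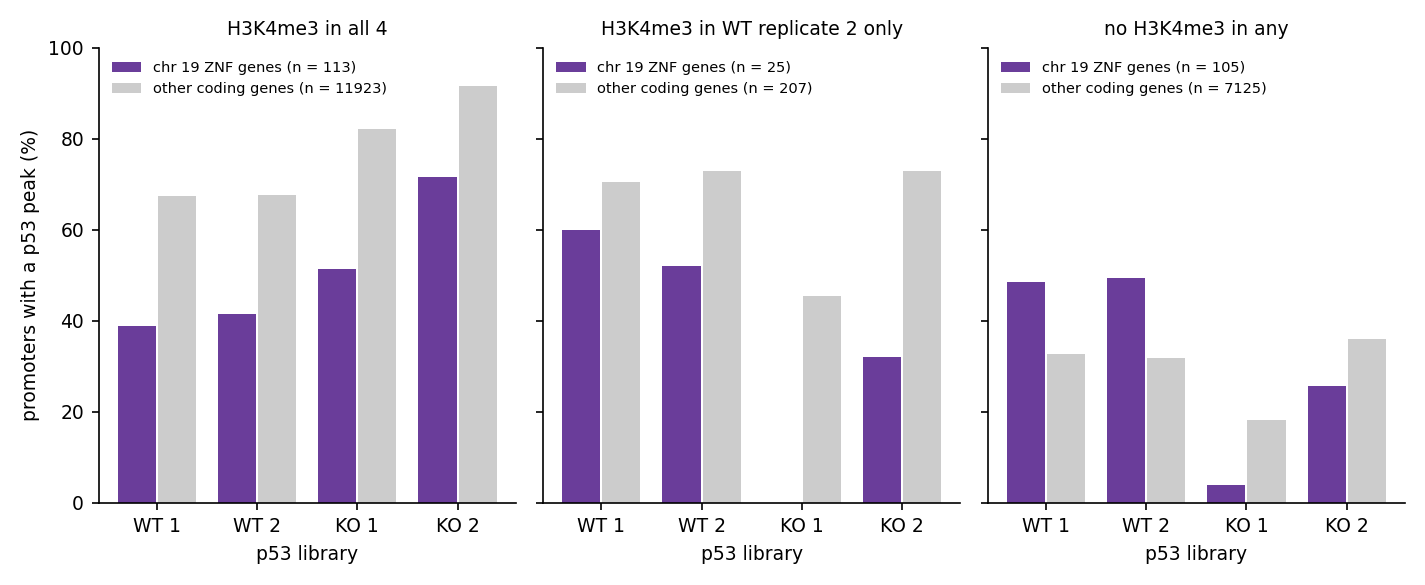
Share of promoters with a p53 peak (y axis, %) in each of the 4 p53 libraries, for chromosome 19 ZNF genes (purple) and other coding genes (grey), split by where H3K4me3 was called. Without H3K4me3 (right), the ZNF share is 48.6% and 49.5% in WT and 3.81% and 25.7% in KO; with H3K4me3 in all 4 libraries (left) it is 38.9% and 41.6% in WT and 51.3% and 71.7% in KO.

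By their lower p53 fold in WT, the 6 highest-ranked members came from every H3K4me3 class. ZNF471 had p53 folds of 15.5 and 24.7 in WT, 4.09 in KO replicate 1 and no peak in KO replicate 2. ZNF606 had 12.8 and 28.2 in WT and 8.25 in KO replicate 2 alone. Neither had H3K4me3 in any library. ZNF441, with H3K4me3 in WT replicate 2 only, had 13.8 and 22.8 in WT and 3.81 in KO replicate 2. ZNF837 and ZNF555 kept H3K4me3 and p53, with p53 folds at ZNF837 of 12.8 and 14.8 in WT and 13.3 and 14.0 in KO. ZNF607, which lost both, was the sixth. Among members without H3K4me3 that lost p53, ZNF69 had 12.8 and 10.6 in WT, ZNF582 had 5.52 and 20.1, and ZNF540 had 7.55 and 18.3, with no p53 peak in KO. ZNF177 was lost at low folds of 4.83 and 5.83. Over the 33 lost members the WT folds ran from 4.83 to 12.8 in replicate 1 and from 4.23 to 24.7 in replicate 2. Kept members had nearly the same median WT folds (7.55 and 13.4, against 7.55 and 12.7 at lost ones). The lowest WT folds were 5.24 and 4.93 at kept members, above the 4.83 and 4.23 at lost ones.

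Several members with a known link to carcinoma or to p53 had p53 but no H3K4me3. ZNF582, ZNF154, ZNF671, ZNF132 and ZNF177, whose promoters are known to be DNA-methylated in carcinomas, all lacked H3K4me3 in every library. DNA methylation was not measured here. Some had other marks: H3K27ac was called at ZNF132 in both WT libraries and at ZNF154 and ZNF671 in WT replicate 2 alone. MLL1 was called at ZNF154 in WT only. Among all members without H3K4me3, p53 was called at 48.6% and 49.5% in WT, beside 32.7% and 31.8% of other coding genes. The p53 calls at these genes varied. ZNF154 had a p53 fold of 5.29 in WT replicate 1 and 5.08 in KO replicate 2, and ZNF671 had 11.3 in WT replicate 2 and 4.45 in KO replicate 2. ZNF132 had 6.04 in WT replicate 1 and 6.35 in KO replicate 2. ZNF420, also called APAK, encodes a KRAB protein that binds p53. Its promoter had a p53 fold of 19.3 in WT replicate 2 and 5.00 in KO replicate 2, and neither H3K4me3 nor H3K27ac. ZNF331, an imprinted gene at the end of cluster 8, had p53 folds of 10.6 and 19.7 in WT and 4.45 in KO replicate 2, with no H3K4me3. ZNF274, which directs SETDB1 to the 3′ ends of ZNF genes, kept H3K4me3 (folds of 66.1 and 79.7 in WT and 70.6 and 80.5 in KO), H3K27ac and p53.

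The clusters differed in both marks and p53. Members with H3K4me3 kept were 35 of 60 in cluster 9 and 14 of 24 in cluster 7, but 8 of 25 in cluster 3, 11 of 37 in cluster 4, 7 of 26 in cluster 6 and 11 of 41 in cluster 8. Among dispersed members it was 9 of 11. Cluster 8 held 11 members called in WT replicate 2 only, as many as it had kept. Median kept H3K4me3 folds in WT replicate 1 and 2 were 25.8 and 61.2 in cluster 6, where the KO medians were 88.3 and 80.6, and 121 and 157 in cluster 9, where they were 123 and 136. Cluster 6 was the only one of the 9 clusters with both KO medians above both WT medians, over 7 promoters.

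The p53 peaks at members without H3K4me3 followed the cluster. In cluster 3 all 12 such members had p53 in both WT libraries, and 10 of the 12 lost it. In cluster 9 it was 15 of 19, with 4 lost. Cluster 6 had 8 of 15, with 5 lost, and cluster 8 had 5 of 18, with 4 lost. In cluster 4 it was 0 of 24, and in cluster 7 it was 0 of 10. In KO replicate 2, the longer list, p53 was called at 13 of the 19 in cluster 9 but at 2 of the 12 in cluster 3. Over whole clusters, both WT libraries had p53 at 20 of 25 members in cluster 3 and at 1 of 37 in cluster 4, beside 49.7% of all coding genes. The cluster 4 genes ZNF43, ZNF85 and ZNF208 are primate-expanded relatives of ZNF91. ZNF208 had no promoter peak of any target, and ZNF43 had MLL4 in WT and a p53 fold of 3.81 in KO replicate 2. ZNF85 had an H3K4me3 fold of 58.3 and an H3K27ac fold of 14.2 in WT replicate 2 alone, and p53 in WT replicate 1 alone. ZNF136 in cluster 3, also called for H3K4me3 in WT replicate 2 only, had p53 folds of 6.80 and 12 in WT and 5.08 in KO replicate 2. ZNF146 in cluster 6, an overexpressed gene in colorectal tumours that has fingers but no KRAB domain, kept H3K4me3 at 99.8 and 143 in WT and 120 and 87.0 in KO. ZNF426 in cluster 2 had MLL4 in WT and no other promoter peak. Neighbouring members share their chromosomal surroundings and are not replicates of one another.

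**Figure D5:**
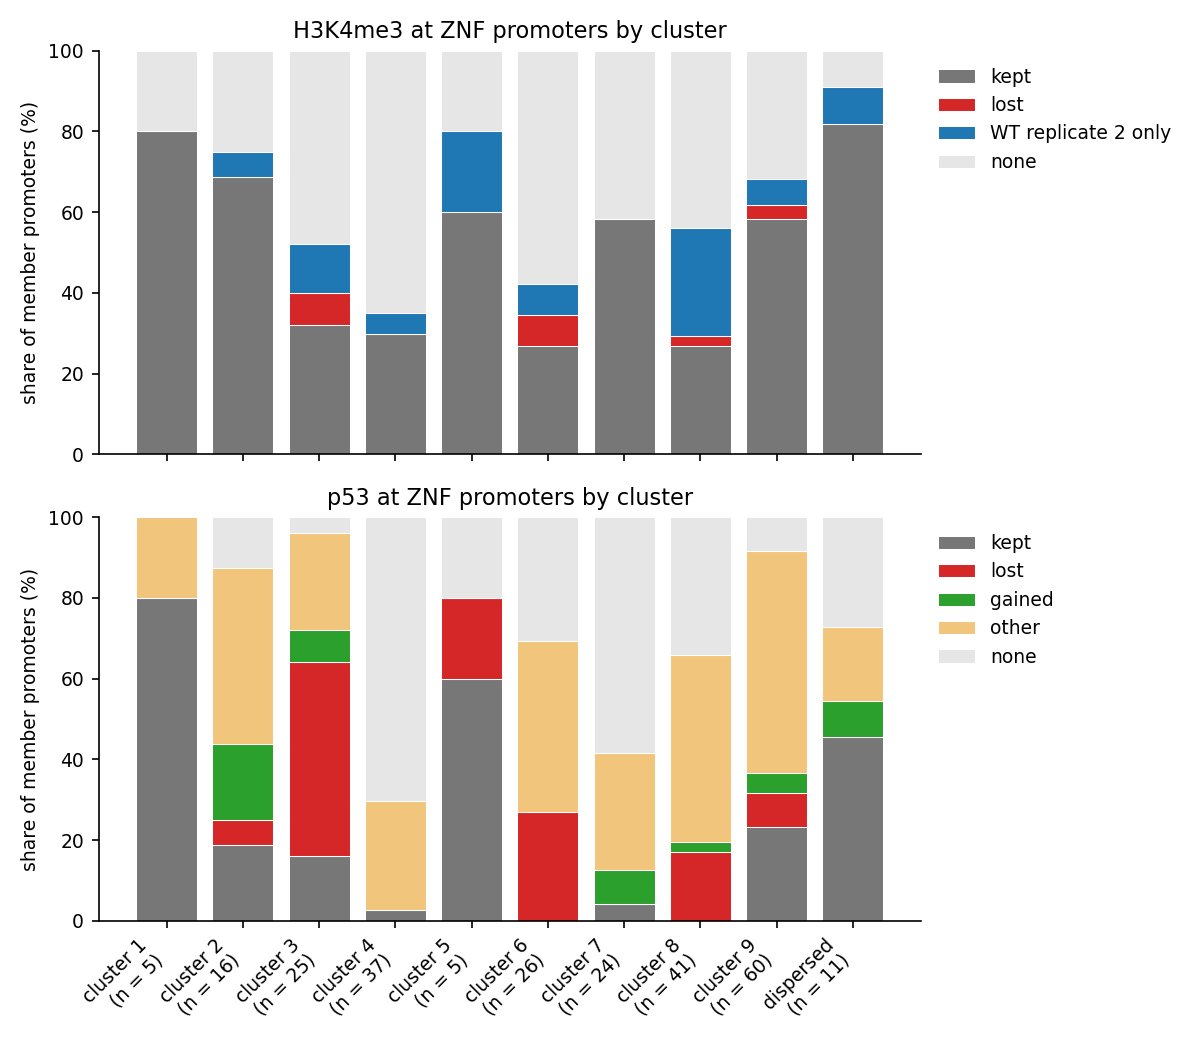
Share of member promoters (y axis, %) by class in each of the 9 clusters and the dispersed members, for H3K4me3 (top) and p53 (bottom); n is the number of members, and the class other holds every remaining combination of p53 libraries. Cluster 3 has the tallest block of lost p53 (12 of 25), clusters 4 and 7 the tallest blocks without p53 (26 of 37 and 14 of 24), and cluster 8 the tallest block of H3K4me3 in WT replicate 2 only (11 of 41).

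MLL1 was called at 99 members in WT and 112 in KO, with 1 library each and so no replicate check. It was kept at 92 (36.8%), gained at 20 (8%) and lost at 7 (2.8%), beside 57.1%, 6.14% and 1.75% of all coding genes. Of the 20 gained, 18 had H3K4me3 kept (90%), beside 45.5% of all coding promoters that gained MLL1. At kept members the MLL1 fold was higher in KO at 86 of 92 (93.5%), beside 97.9% of all coding promoters with MLL1 kept. The median MLL1 folds were 6.45 in WT and 13 in KO, beside 10.7 and 33.7 over all coding genes. The MLL1 gains included ZNF765, which had no peak in WT and a fold of 12.7 in KO. ZNF653, a corepressor gene, had 12.3 in KO only. The 3 members that lost both H3K4me3 and MLL1 were ZNF700, ZNF566 and ZNF607.

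MLL4 was called at 65 promoters in WT (26%) and at 0 in KO, beside 38.8% of all coding genes lost. The highest folds were 10.0 at ZNF580, 9.17 at ZNF628 and 8.90 at ZNF627. Of the 65, 40 had H3K4me3 kept (61.5%), beside 82.1% of all coding promoters with MLL4 in WT. H3K4me1 was kept at 99 members (39.6%), lost at 15 (6%) and gained at 6 (2.4%), beside 55.1%, 16.8% and 2.76% of all coding genes. Among kept members the H3K4me1 fold was lower in KO at 76 of 99 (76.8%), beside 83.4% of all coding promoters with H3K4me1 kept. ZNF875 had the highest H3K4me1 fold of those lost (7.39 in WT). ZNF382 and ZNF529 share the H3K4me1 peak gained in KO, with a fold of 4.03, and both had p53 but no H3K4me3. The count of lost H3K4me1 promoters moved from 4 to 61 with the settings, beside 7.97% to 44.6% of all coding genes. With −log10 q of at least 5, MLL1 was lost at 0 and gained at 46 of 250 members, beside 0.376% and 10.3% of all coding genes. The gained share of members was above that of the genome.

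Outside promoters, the gene bodies held few H3K27ac and H3K4me1 peaks compared with all coding genes. Body peaks are those within the gene and 2 kb on each side that meet no promoter window of a coding gene. The 250 windows spanned 7.97 Mb. H3K27ac body peaks numbered 15.9 and 30 per Mb in WT and 6.03 and 4.64 in KO, beside 54.2 and 81.2 in WT and 22.8 and 20.7 in KO over all coding genes. H3K4me1 body peaks numbered 9.41 per Mb in WT and 5.27 in KO, beside 45.3 and 13.2. For MLL4 the value in WT was 17.2 per Mb, beside 21.4 over all coding genes, 21.7 in ZNF genes elsewhere and 71.3 in other chromosome 19 genes.

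No body H3K27ac was called in any library at 157 members (62.8%, beside 23.8% of all coding genes), and no body H3K4me1 at 198 (79.2%, beside 26.2%). Body H3K27ac was lost at 27 members (10.8%), beside 13.6%, and body H3K4me1 at 20 (8%), beside 24.2%. Body MLL4 was called in WT at 96 (38.4%), beside 54.8%. Without H3K27ac WT replicate 1 the lost H3K27ac body count was 64 (25.6%, beside 22.7%), which turned that comparison round. Body p53 was lost at 20 (8%), beside 1.52%. The density of p53 body peaks was 10.8 and 11.3 per Mb in WT and 2.64 and 9.29 in KO, beside 10.9 and 8.89 in WT and 6.08 and 21.0 in KO over all coding genes. The KO replicate 2 list has the most p53 peaks in the genome but fewer per Mb in ZNF bodies than either WT list. The members with the most body H3K27ac were ZNF787 (14 peaks in each WT library, 4 and 1 in KO) and ZNF541 (10 in each WT library, 4 in each KO library). ZNF536, a gene of 487995 bp, had 11 body H3K4me1 peaks in WT and 0 in KO, and 8 MLL4 peaks in WT.

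A pair of features of the promoter sequence were shared across the classes. The first is the ETS core CCGGAAG, searched on both strands of the 300 bases from 250 before to 50 after each listed start, for the 219 members with such a window. It was present in 111 of 271 member windows (41.0%), beside 12.8% of all 22131 coding windows and 28.4% of windows of ZNF genes elsewhere. The share was 40.3% at members with H3K4me3 kept and 40.0% at members without it. Over all coding genes it was 17.4% and 3.67% in those classes. The ZNF582 stretch printed above has this core on both strands, and the ZNF580 stretch has it on the other strand. The 2 cores of NRF1 (CATGCGC) and YY1 (AAGATGG) were in 6.27% and 8.86% of member windows, beside 5.26% and 6.05%. The GC box GGGCGG was in 64.9%, beside 56.3%. The cores CTACAAT of ZNF143 and TGACTCA of AP-1 were each in 2.58%, beside 1.36% and 4.01%. A match describes letters and is not a binding site.

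The second is CpG content. Members without H3K4me3 had a median of 18 CpG in the 300-base window, beside 6 over all coding windows without H3K4me3, and members with H3K4me3 kept had 22, beside 26. Among members without H3K4me3, those with p53 in both WT libraries had a median of 25 and those with no p53 had 14. Other coding windows without H3K4me3 differed in the same direction, with a median of 3 where p53 was absent. Where p53 was lost they had 19, beside 22.5 for members. Members without H3K4me3 were thus closer in CpG content to the kept members than the same classes were over all coding genes.

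Close relatives differed in H3K4me3 class about as often as other members of their cluster. Among 216 members with a listed start that are not readthrough genes, 83 pairs shared a run of at least 30 identical bases in their windows, and both members of each pair lay in the same cluster. Cluster 4 held 63 of these pairs. The H3K4me3 class was the same in 35 pairs and different in 48 (57.8%), beside 59.2% of the 3123 other pairs within a cluster. In cluster 4 the shares were 55.6% and 55.1%. ZNF587B, with H3K4me3 in WT replicate 2 only, and ZNF814, with none, were identical at 92.2% of 295 aligned columns. ZNF443 and ZNF799, identical at 91.6%, both kept H3K4me3. Members in such a pair were 19 of 101 with H3K4me3 kept (18.8%), 9 of 22 called in WT replicate 2 only (40.9%), 3 of 7 lost (42.9%) and 20 of 86 without H3K4me3 (23.3%). How reads that fit several copies were placed is not given in the sources used here, and its part in these calls was not tested.

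The cofactors of KRAB zinc finger proteins were marked in both genotypes. Of 18 genes in this list, 18 kept H3K4me3, 18 kept H3K27ac and 18 kept MLL1, beside 60.3%, 63.4% and 57.1% of all coding genes. They include TRIM28, the KRAB-binding corepressor, SETDB1, the H3K9 methyltransferase, CBX1, CBX3 and CBX5, which encode the HP1 proteins, and DNMT1, the maintenance DNA methyltransferase. p53 was kept at 10 of the 18 (55.6%, beside 42.4%) and lost at 0. H3K4me1 was lost at 4 (ATF7IP, CBX3, CBX5 and ATRX), or 22.2%, beside 16.8%. MLL4 was called in WT at 8, or 44.4%, beside 38.8%.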

How the data were processed

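ChIP-seq peak lists of 6 targets from WT and MLL4-KO HCT116 cells were used, 18 lists from 20 libraries; the 2 inputs came without lists. Peaks were called by the authors with MACS2 2.1.1 on hg38, per the submitters' processing notes, in each library against the input of its genotype, as the deposited lists are named. Per peak the deposited values are the fold (a ratio of ChIP to local background) and the −log10 q-value the authors' caller gave. Read depth is unknown, so no counting interval is given. In the sources used here, the aligner and the treatment of reads with several matches are not given. Gene bodies, start sites and sequences came from RefSeq (GRCh38.p14).

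Peaks were joined to genes in Python 3.11.15 with NumPy 2.4.6 and pandas 2.3.3, and sequences aligned with Biopython 1.88. A peak counted with 1 bp of overlap. The code that assigns classes was checked on simulated peaks of known class, which is no test of the counts. Alternatives were −log10 q of at least 5, lists of equal length, 200 bp of overlap, 500 bp windows, gene ends as anchors, members with a listed start only, each replicate left out, and clusters joined at 0.5 Mb. The replicate 2 class, the p53 class without H3K4me3 and the listed-start setting were added after seeing the data.

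Members and gene lists were chosen with earlier results of these data known. Genes were named by rank within each class (lowest replicate fold, width or peak number), from a list of 20 genes, or, for kept promoters that moved, for WT replicate 2 examples and for sequence relatives, after their values were seen. No test across replicates was made.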

Additional observations from a re-analysis of the deposited data

How the results depend on the processing

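Of 132 alternative values, 110 stayed within the limit (1.5 times for a count) and 22 did not, and the cause of a change was not tested. The median log2 KO over WT H3K4me3 fold at kept members (−0.09) changed sign against WT replicate 1, to 0.07 with KO replicate 1 and 0.2 with KO replicate 2. Without each replicate in turn, lost promoters ranged from 7 to 32 for H3K4me3, 15 to 49 for H3K27ac and 36 to 57 for p53, from 25 to 38 for p53 at members without H3K4me3, and lost gene bodies from 28 to 64 for H3K27ac. Over all coding genes those ranges were 0.411% to 1.47%, 9.86% to 13.3%, 1.57% to 7.12%, 1.23% to 5.05% and 15.1% to 22.7%. Gained p53 ranged from 13 to 37, beside 8.57% to 14.2% of all coding genes, and gained H3K4me3 and H3K27ac stayed at 0. The high ends came without WT replicate 1 for the histone marks, without KO replicate 2 for p53 loss and without KO replicate 1 for p53 gain. With −log10 q of at least 5, loss was 8 for H3K27ac, 61 for H3K4me1, 0 for MLL1 and 9 for MLL4 promoters. Over all coding genes these losses were 8.06%, 44.6%, 0.376% and 12.3%. Loss was 16 of 250 members for H3K27ac bodies, beside 15.9%, and MLL1 gain was 46 of 250, beside 10.3%. With lists of equal length, loss was 6 for H3K27ac, 4 for H3K4me1 and 2 for MLL1 promoters, beside 2.71%, 7.97% and 1.16%. For bodies it was 5 for H3K27ac and 7 for H3K4me1, beside 2.81% and 10.6%. With 200 bp of overlap, loss was 27 for H3K4me1 and 42 for MLL4, beside 20.6% and 30.4%. With 500 bp windows it was 52 for H3K4me1 promoters and 10 for H3K4me1 bodies, beside 27.2% and 15.7%. As shares of the 250 members, the losses given for these settings were all below those of all coding genes. Members called for H3K4me3 in WT replicate 2 only numbered 23 to 25 over the settings. Joining genes at 0.5 Mb gave 10 clusters.

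No paired analysis was possible because no model was fitted; by replicate number, the median H3K4me3 value was 0.07 for replicate 1 and −0.23 for replicate 2. Peak lists without depth cannot separate a lost mark from one below the calling limit. Each genotype has its own input and was taken as 1 line, so line, input and MLL4 loss cannot be told apart. Protein features such as finger number and KRAB domains were not analysed here.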
